A study of Mus musculus with 141 samples.

Results

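CpG methylation was described at the genes for axon guidance ligands and receptors in a culture of mouse glioma cells with the R132H mutation in an isocitrate dehydrogenase (IDH) gene. The set comprised every autosomal protein-coding gene whose symbol starts with Sema, Plxn, Epha, Ephb, Efna, Efnb, Slit followed by 1 to 3, Robo, Ntn, Unc5 or Rtn4r, which gave 70 of the 20665 autosomal protein-coding genes in the RefSeq annotation of GRCm38.p6, the sequence of mm10. CpGs within 1 kb of either end of a gene were used. A gene counted as measured with at least 50 calls in each arm, a call being the methylated or unmethylated state of 1 CpG in 1 cell. By this minimum 50 of the 70 members were measured, among 10768 measured genes in all. The rule uses names and depth and no methylation value.

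All cells carried the IDH R132H mutation. They were grown in 1 µM AG-881 (vorasidenib, which inhibits mutant IDH1 and mutant IDH2) or in the vehicle DMSO alone, in each case for over 2 weeks, and live single cells were sorted and profiled by reduced representation bisulfite sequencing after cutting with MspI, an enzyme that enriches CpG-dense sequence. The mutant enzyme makes 2-hydroxyglutarate, which inhibits the TET enzymes that start the removal of DNA methylation. The data held 67 AG-881 cells, with a median of 89440 CpGs called per cell (range 23895 to 190259), and 74 DMSO cells, with a median of 67749 (range 10438 to 165853), in library pools 1 to 4 for AG-881 and 5 to 8 for DMSO. The labels tell of 1 plate for each arm and of no replicate cultures, so an arm was 1 sample, no p-value is given, and pool and arm cannot be told apart. RNA was not analysed here, so the cells' identity was not checked against marker genes.

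Axon guidance cues steer growing axons and migrating cells, and glial progenitors and gliomas use many of the same molecules. Semaphorins signal through plexins, ephrins bind Eph receptors at cell contacts, Slits repel through Robo receptors, netrins attract through Dcc and repel through Unc5 receptors, and the Nogo receptors bind inhibitors of axon regrowth found in myelin. Methylation of CpG-dense promoters usually goes with a silent gene, whereas the bodies and far ends of active genes are often methylated. The label of the set holds for all members by name except Unc50 and Unc5cl, which match the prefix Unc5 but are not netrin receptors.

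The 50 measured members spanned the whole range of methylation, from 0 of 208 AG-881 calls and 0 of 197 DMSO calls at Unc50 to 90.8% and 88.6% at Efnb3. Those counts of 0 allow a level of up to 1.44% and 1.52% (3 calls of the total). In 11 members both arms lay below 5%, which is 22% of the members, against 57.9% of all measured genes. Members with a mean level of the arms of 20% or more numbered 24 of 50 (48%), against 20.8% of all measured genes. The median member level was 17.97% in AG-881 and 18.1% in DMSO cells, and the median over all measured genes was 2.16% and 2.60%. The members below 5% in both arms were Epha7, Ephb3, Efna5, Ntn1, Ntn4, Plxna1, Plxna2, Plxna4, Plxnd1, Unc5b and Unc50. Members with a mean of 60% or more were Efna1, Efnb3, Ntn3, Slit1 and Unc5a. Apart from the members picked by the rule for named genes, those given with values here were chosen after their values were seen.

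**Figure D1:**
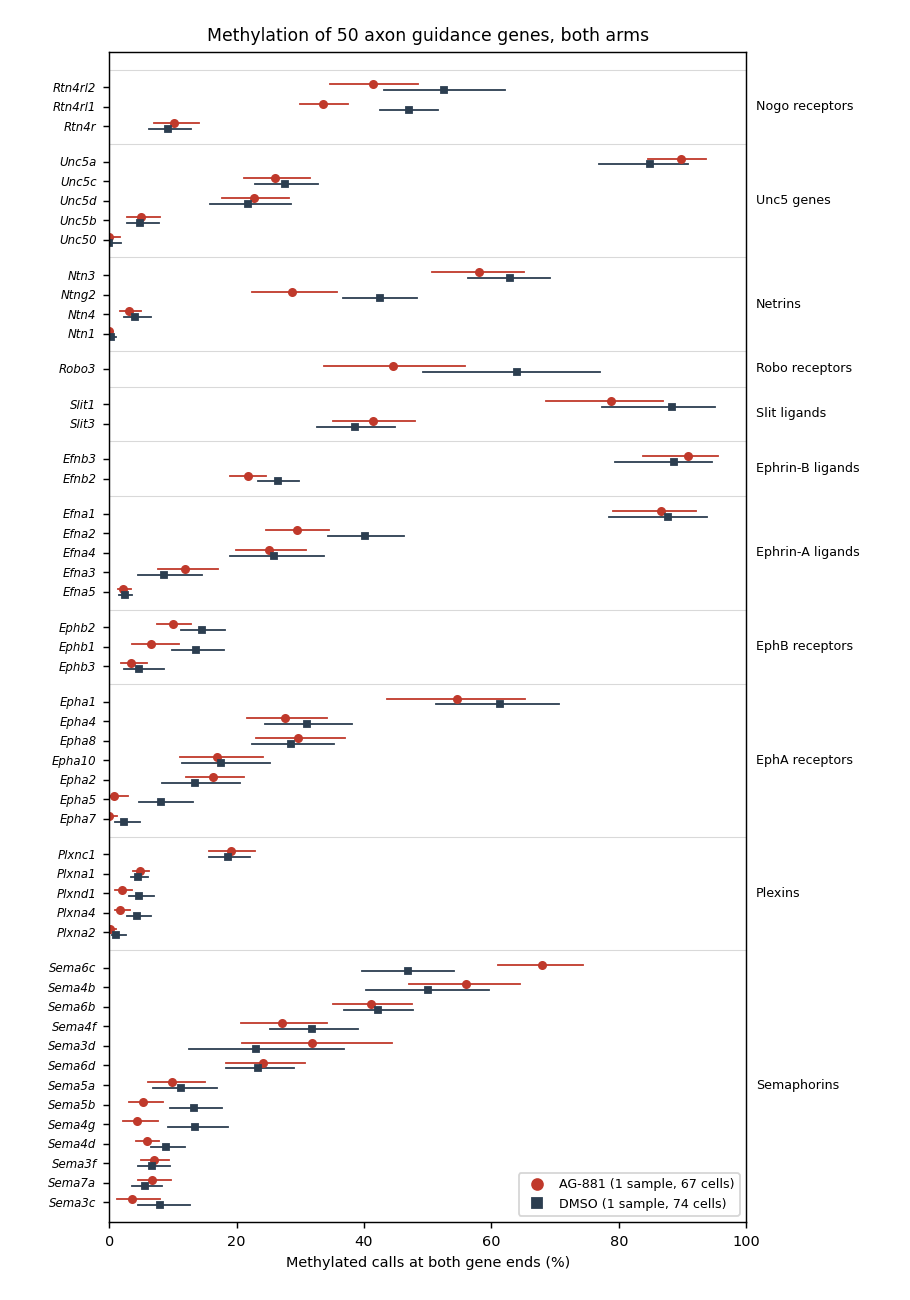
Methylated calls (%, x axis) at both gene ends of each of the 50 measured members (y axis, by family), with exact 95% binomial intervals as horizontal lines; circles are AG-881 and squares DMSO. Levels run from 0% at Unc50 to about 90% at Efnb3 and Unc5a, and the Nogo receptors Rtn4rl1 and Rtn4rl2, the netrin-G gene Ntng2 and Robo3 lie lower with AG-881.

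Pooled over all members, 17.02% of 16852 calls were methylated with AG-881 (exact 95% binomial interval, Clopper-Pearson, 16.5 to 17.6) and 18.7% of 15241 calls with DMSO (18.1 to 19.4). The difference, AG-881 minus DMSO, was -1.71 percentage points (interval -2.56 to -0.870), and over all autosomal protein-coding genes it was -0.858 points, with levels of 9.69% and 10.5%. Intervals here cover counting error alone, and since neighbouring calls of the same cell are correlated, intervals over cells would be wider. The AG-881 pools 1 to 4 were at 13.8%, 17.2%, 19.2% and 17.2%, and the DMSO pools 5 to 8 at 20.1%, 17.6%, 18.9% and 17.98%. The pools of the arms overlapped, since AG-881 pool 3 lay above every DMSO pool but pool 5, and leaving out AG-881 pool 1 gave -0.940 points. Because cells of the arms can cover different CpGs, each CpG called in both arms was also compared with itself, and the difference at such matched CpGs was -1.98 points (interval -2.61 to -1.34).

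Of the 50 measured members, 32 were lower and 17 higher with AG-881, and Unc50 was at 0 in both arms. The share lower, 64%, stood beside 55.2% of all measured genes, and the share higher, 34%, beside 36.9%. A difference of 5 points or more counted as called. By it 11 members were lower (22%; 12.1% of all measured genes) and 3 higher (6.0%; 4.92% of all measured genes). At matched CpGs 13 members were lower by 5 points or more (26%; 10.3% of all measured genes) and 3 higher (6.0%; 3.28%). Both ways of counting gave 9 members as lower, Epha1, Epha5, Ephb1, Ntng2, Robo3, Rtn4rl1, Rtn4rl2, Sema5b and Slit1, and 1 as higher, Sema3d. Of all 10768 measured genes, both ways gave 899 as lower and 262 as higher.

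These shares stand next to the members' higher levels, taken as the mean of both arms, and are given here by class of that level. A gene under 5% with DMSO cannot be lower by 5 points. Whether level accounts for the shares was not tested. Among the 19 members with a mean level of 20% to 60%, 6 were lower by 5 points or more (31.6%), against 41.4% of all genes at that level. At 5% to 20% it was 3 of 14 members (21.4%), against 22.1%, and at 60% or more 1 of 5 (20%), against 27.3%. Below 5% it was 1 of 12, Epha5, against 0.411% of all genes. The median difference of members at 20% to 60% was -1.56 points, and that of all genes there -3.60 points. Within each class of 5% or more the members' share was below that of all genes, a gap that was not tested.

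The rule that every pool of an arm lie beyond every pool of the other, over pools with 10 or more calls, was met by 2 of 48 members in the direction of lower AG-881 levels, Rtn4rl1 and Robo3, and by none in the other direction. Among all genes with enough pools 1.99% met it downward and 0.571% upward. At Robo3 it rests on 3 DMSO pools, because pool 6 had too few calls, and that pool, at 50%, lay below 2 of the AG-881 pools.

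The stretch of 250 bases just before a RefSeq transcription start is printed for 5 starts with at least 25 calls in each arm there. Robo2, Rtn4rl2, Sema6b and Efnb2 are shown because the arms differed most there. Plxnd1 is shown as an example of a stretch where every call was unmethylated. The same held at Efna5, Plxna2, Unc50 and a stretch each of Sema4b and Sema4c. The values that chose the 5 stretches are thus given as a description. The sequences are from RefSeq, build GRCm38.p6, 5′ to 3′ on the gene's strand, which is the minus strand in all 5. Capitals mark CpGs with at least 1 call in these cells.
Robo2, chr16:74411826-74412075: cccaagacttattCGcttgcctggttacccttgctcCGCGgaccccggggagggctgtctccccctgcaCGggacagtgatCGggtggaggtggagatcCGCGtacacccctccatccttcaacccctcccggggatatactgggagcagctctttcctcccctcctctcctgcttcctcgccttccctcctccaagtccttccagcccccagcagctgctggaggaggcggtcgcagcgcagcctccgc
Rtn4rl2, chr2:84886693-84886942: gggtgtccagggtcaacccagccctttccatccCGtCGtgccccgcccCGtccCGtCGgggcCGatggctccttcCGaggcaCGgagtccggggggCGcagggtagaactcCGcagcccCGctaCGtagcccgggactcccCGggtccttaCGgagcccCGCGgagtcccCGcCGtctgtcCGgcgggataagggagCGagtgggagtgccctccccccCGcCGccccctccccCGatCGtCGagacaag
Sema6b, chr17:56140344-56140593: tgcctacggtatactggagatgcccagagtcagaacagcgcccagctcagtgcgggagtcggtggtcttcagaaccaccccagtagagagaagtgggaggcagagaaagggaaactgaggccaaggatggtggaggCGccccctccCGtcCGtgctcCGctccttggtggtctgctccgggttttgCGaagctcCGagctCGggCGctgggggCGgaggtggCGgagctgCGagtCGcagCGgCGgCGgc
Efnb2, chr8:8661243-8661492: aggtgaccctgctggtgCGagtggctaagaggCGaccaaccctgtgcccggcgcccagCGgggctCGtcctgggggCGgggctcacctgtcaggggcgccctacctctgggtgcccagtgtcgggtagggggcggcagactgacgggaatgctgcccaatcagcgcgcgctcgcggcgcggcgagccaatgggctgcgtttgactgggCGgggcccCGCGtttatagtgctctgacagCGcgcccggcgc
Plxnd1, chr6:115995006-115995255: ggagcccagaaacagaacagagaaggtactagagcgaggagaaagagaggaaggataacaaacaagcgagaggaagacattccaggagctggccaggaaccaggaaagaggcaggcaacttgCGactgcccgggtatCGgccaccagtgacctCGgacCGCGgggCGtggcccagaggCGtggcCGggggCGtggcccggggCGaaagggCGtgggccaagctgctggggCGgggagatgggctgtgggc

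In the Robo2 stretch, which holds 14 CpGs, 7 of them with calls, 14.3% of 49 calls were methylated with AG-881 (13 cells) and 80.8% of 26 calls with DMSO (7 cells), a difference of -66.5 points (interval -81.7 to -42.6). At the matched CpGs, 4 in number, the difference was -69.3 points. The CpG 149 bases before the start, for example, was methylated in 1 of 12 AG-881 cells and 6 of 7 DMSO cells. AG-881 pools 2, 3 and 4 stood at 15.4%, 30.8% and 4.35%, on 13, 13 and 23 calls. DMSO pools 5, 6 and 8 stood at 85.7%, 87.5% and 72.7%, on 7, 8 and 11 calls, and pools 1 and 7 had no call. Because DMSO pools 5 and 6 had fewer than 10 calls, the rule of separate pools could not be applied to this stretch. In the Rtn4rl2 stretch 17.7% of 79 calls (10 cells) were methylated with AG-881 and 54.5% of 44 calls (6 cells) with DMSO, which is a difference of -36.8 points (interval -53.7 to -18.1).

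The Sema6b stretch had 0 methylated of 30 calls with AG-881, in 4 cells, which allows a level of up to 10.0%, and 21.4% of 84 calls with DMSO, in 10 cells. In the Efnb2 stretch it was 0 of 75 calls (10 cells; up to 4.00% allowed) against 14.7% of 68 calls (14 cells). Methylated calls of Efnb2 came from 4 of those 14 DMSO cells, and those of Sema6b from 4 of 10. Both values rest largely on DMSO pool 7, without which DMSO stood at 8.51% of 47 calls at Sema6b and 7.89% of 38 calls at Efnb2. In Plxnd1 none of 108 AG-881 calls and none of 105 DMSO calls was methylated, over 23 cells in each arm. CCGG, the site of MspI (the same on both strands), occurred in 69.7% of the 76 upstream stretches available for members and in 57.04% of 20085 such stretches of all genes, with medians of 16 and 10 CpGs per stretch. A match is a description of the letters only.

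Among the semaphorins, secreted or membrane-bound ligands of plexins, 13 of 20 were measured. With AG-881 7 were lower and 6 higher, beside 55.2% and 36.9% of all measured genes. Pooled, the family stood at 17.8% and 19.6%, a difference of -1.78 points (interval -3.63 to 0.061) that was -1.01 at matched CpGs and -1.01 without AG-881 pool 1. Sema5b (chr16:35541154-35664261), a membrane semaphorin with thrombospondin repeats, was at 5.31% (320 calls) with AG-881 and 13.2% (287 calls) with DMSO, which is a difference of -7.93 points (interval -12.9 to -3.13). Its AG-881 pools were at 3.03%, 8.70%, 9.09% and 3.06% and its DMSO pools at 22.6%, 6.06%, 14.1% and 10.4%. The arms overlapped only through DMSO pool 6, which lay below AG-881 pools 2 and 3. Sema4g, a class 4 transmembrane semaphorin, was at 4.35% and 13.4%, but at matched CpGs the difference was -3.74 rather than -9.08 points. Sema6c (chr3:95160420-95174050), a class 6 transmembrane semaphorin, had the highest mean level of the family and went the other way, 67.98% of 203 calls against 46.9% of 194 calls.

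The arms covered the ends of Sema6c unequally, and AG-881 stood higher at each end. How much of the excess goes with that cover was not tested. Within 1 kb of its start 12.9% of 62 AG-881 calls and 4.26% of 94 DMSO calls were methylated, and around its far end 92.2% of 141 and 87.0% of 100. At matched CpGs the gene differed by -0.368 points (interval -6.55 to 5.81), so the sign turned when each CpG was set against itself. Sema3d, a secreted semaphorin, had 31.8% against 23.1% on 66 and 52 calls and a matched difference of 9.26 points (interval -4.66 to 23.2). At Sema4b the gene ends stood at 55.97% and 50%, with equal levels once AG-881 pool 3 was left out, while around a RefSeq start inside the gene 0 of 333 and 0 of 301 calls were methylated (up to 0.901% and 0.997% allowed). Sema6b was at 41.2% and 42.3% over both ends, made of 2.74% and 11.3% at the start and 92.7% and 90.2% at the far end.

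Plexins, the receptors of semaphorins, were among the least methylated members: 5.99% of 3355 calls with AG-881 and 7.90% of 3113 calls with DMSO, which is a difference of -1.91 points (interval -3.18 to -0.651; -1.79 at matched CpGs). Plxna1, Plxna2, Plxna4 and Plxnd1 lay below 5% in both arms at their gene ends. Within 1 kb of its RefSeq start, though, Plxnd1 stood at 9.75% of 667 AG-881 calls and 9.34% of 610 DMSO calls. Plxnd1 (chr6:115954811-115995339), the receptor of Sema3e in vessel patterning, was at 1.98% and 4.75%, with AG-881 pools at 1.01%, 0.971%, 0.658% and 4.67% and DMSO pools at 6.25%, 5.71%, 3.79% and 3.36%. Only AG-881 pool 4 reached into the range of the DMSO pools. The difference of -2.77 points lay outside the stretch printed above, and it was 0.639 points within 500 bp of the gene ends and 5.28 points within 2 kb. Plxnc1, the receptor of Sema7a, had the highest level of the family, 19.05% and 18.7%, with a matched difference of -5.24 points (interval -9.37 to -1.12).

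With AG-881, 8 of 10 measured EphA and EphB receptors, the tyrosine kinases that ephrins bind, were lower, beside 55.2% of all measured genes. Pooled over all 14 EphA and EphB genes, measured or not, the levels were 13.2% of 2591 calls and 16.5% of 2272 calls. The difference was -3.31 points (interval -5.36 to -1.28), -2.68 at matched CpGs and -1.96 without AG-881 pool 4. Epha5 (chr5:84054761-84417818), an EphA receptor studied in axon mapping, had 2 methylated of 243 calls with AG-881 (0.823%) and 8.20% of 183 calls with DMSO, which is a difference of -7.37 points (interval -12.4 to -3.25; -7.22 at matched CpGs). Its AG-881 pools were at 0%, 4.44%, 0% and 0% and its DMSO pools at 0%, 11.3%, 13.04% and 4.29%, so DMSO pool 5 lay with the AG-881 pools and DMSO pool 8 just below AG-881 pool 2. Of cells with at least 3 calls there, 22 of 24 AG-881 cells and 10 of 18 DMSO cells had no methylated call. Epha7 had 0 of 291 calls with AG-881 (up to 1.03% allowed) and 2.36% of 297 calls with DMSO, or 1.11% without DMSO pool 5.

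Ephb1 (chr9:101922128-102354693), an EphB receptor that acts in retinal axon guidance, was at 6.57% of 198 calls against 13.6% of 302 calls, a difference of -7.01 points (interval -12.3 to -1.29; -8.45 at matched CpGs). The AG-881 pools lay at 0%, 4.55%, 19.05% and 7.69% and the DMSO pools at 7.92%, 18.9%, 16.4% and 15.5%. AG-881 pool 3, on 21 calls, was the highest of all 8 pools, and the other AG-881 pools lay below every DMSO pool. Ephb2, with 9.96% and 14.5%, differed by -4.56 points, by -1.55 without DMSO pool 8 and by -7.07 without DMSO pool 5. Epha1 had the highest level of the EphA receptors, 54.5% and 61.3%. Its difference of -6.78 points turned to 1.42 without AG-881 pool 1 and was -15.2 without DMSO pool 5, and its matched difference was -12.9 points (interval -25.6 to -0.323). Epha2 was at 16.2% and 13.5%, a difference of 2.69 points that was 0.103 without AG-881 pool 3. The EphA family differed by -3.41 points, by -5.19 without AG-881 pool 3 and by -2.19 without AG-881 pool 4, and the EphB family by -3.16 points, by -5.41 without DMSO pool 5, by -1.57 without DMSO pool 8 and by -1.99 without AG-881 pool 4.

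For the ephrins, membrane-bound ligands of Eph receptors, the direction depended on the measure. Over all calls, AG-881 levels lay below DMSO levels at 5 ephrin genes and above them at 2, beside 55.2% and 36.9% of all measured genes. At matched CpGs these counts were 2 below and 5 above, beside 5906 and 3659 of all 10768 measured genes. The sign changed at small values at Efna5 (-0.227 and 0.001 points) and Efna1 (-1.10 and 0.259). Both ephrin families together differed by 0.383 points over all calls and by -1.29 at matched CpGs (interval -2.94 to 0.369). Ephrin-A genes stood at 17.4% and 15.7% (difference 1.74 points, interval -0.805 to 4.27; 0.292 without DMSO pool 8 and 0.934 without AG-881 pool 4). This pooled rise came with a fall at 4 of the 5 Ephrin-A genes taken singly, or at 1 of 5 by matched CpGs. Efna1 was methylated at 86.6% and 87.7% around the start at its gene end, and Efna5 at 2.20% and 2.43%. Another RefSeq start of Efna1, with calls below the minimum, stood at 15.4% of 26 AG-881 calls and 28.3% of 46 DMSO calls. Efna2 had 29.4% of 340 calls against 40.2% of 276 calls, a difference of -10.8 points that was -1.66 at matched CpGs (interval -7.60 to 4.28). Its start was at 3.94% and 7.2% and its far end at 67.2% and 67.5%, and the arms drew different shares of their calls from these ends. Efna3 was at 11.8% and 8.63%, a difference of 3.19 points that was -0.400 without DMSO pool 8, 1.71 without AG-881 pool 1 and 5.34 without DMSO pool 7. Efna4 had 25.1% and 25.9%, with a matched difference of 6.44 points (interval 2.01 to 10.9).

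Efnb2 (chr8:8617235-8661242), the ligand of Ephb4 in arteries and of EphB receptors on axons, stood at 21.7% of 861 calls and 26.5% of 732 calls around its start, a difference of -4.78 points (interval -9.10 to -0.486; -5.67 at matched CpGs). AG-881 pools ran from 5.63% to 32% and DMSO pools from 19.8% to 33.8%. The gap at this gene was -1.61 points without AG-881 pool 1, -2.06 without DMSO pool 5 and -8.42 without AG-881 pool 3, and within 500 bp it was 2.86 points. Efnb3 was measured at its higher-coordinate end and stood at 90.8% and 88.6%, 2.22 points apart (0.281 without AG-881 pool 4). The Ephrin-B family differed by -3.07 points, by 0.133 without DMSO pool 5, by -0.418 without AG-881 pool 1, by -7.13 without AG-881 pool 3 and by -4.97 without DMSO pool 8.

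Slit ligands and Robo receptors form a repellent pair, and the windows of their gene ends were thinly covered. Of the Slits, Slit1 (chr19:41597824-41747275) was at 78.8% of 85 calls and 88.3% of 60 calls, a difference of -9.51 points (interval -21.8 to 4.08; -8.26 at matched CpGs and -5.05 without DMSO pool 5). Slit3, at 41.5% and 38.6%, differed by 2.84 points, by -0.805 without AG-881 pool 3 and by -5.25 without DMSO pool 5. The Slit family as a whole differed by 3.45 points, by -0.474 without AG-881 pool 3, by -1.12 without DMSO pool 5 and by -1.06 at matched CpGs. Slit2 had no call at its gene ends, and around a RefSeq start inside the gene it stood at 24.7% of 255 calls and 25.6% of 207 calls.

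Robo3 (chr9:37416045-37433436), the divergent Robo receptor of commissural axons, was the single Robo gene measured at its ends: 44.6% of 83 calls with AG-881 and 64% of 50 calls with DMSO, which is a difference of -19.4 points (interval -36.5 to -0.783; -16.8 at matched CpGs). These calls came from 15 and 12 cells. Robo2, a main Slit receptor, had no call at its gene ends but was covered around the RefSeq start whose upstream stretch is printed above (chr16, position 74411825). Within 1 kb of it 19.1% of 131 AG-881 calls and 46.4% of 69 DMSO calls were methylated, a difference of -27.3 points (interval -41.2 to -12.9; -29.4 at matched CpGs). The AG-881 pools were at 33.3%, 20.8%, 21.6% and 8.70%, and the DMSO pools with 10 or more calls at 36.8%, 63.6% and 42.9%. Every one of these AG-881 pools lay below every one of these DMSO pools, and the remaining DMSO pool, with 4 calls, was at 75%. Robo1 had 0 of 134 calls (up to 2.24% allowed) and 4.26% of 94 calls around a RefSeq start inside the gene, or 1.64% of 61 DMSO calls without pool 7.

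Netrins, here the secreted netrins and the membrane-anchored netrin-G genes, were at 12.6% of 1651 calls and 18.5% of 1636 calls, a difference of -5.86 points (interval -8.37 to -3.35) that was -2.52 at matched CpGs. All 4 measured members were lower with AG-881, beside 55.2% of all measured genes. Ntn1, the classical attractant of commissural axons, had no methylated call among 736 with AG-881 (up to 0.408% allowed) and 0.286% of 699 calls methylated with DMSO. Ntng2 (chr2:29194726-29248099), a synaptic netrin-G, was measured at its far end, at 28.7% of 188 calls and 42.5% of 292 calls, a difference of -13.7 points (interval -22.4 to -4.66). The AG-881 pools lay at 9.76%, 38.5%, 37.2% and 29.2% and the DMSO pools at 43.6%, 53.8%, 49.3% and 29.1%. DMSO pool 8 overlapped the AG-881 pools, and leaving out AG-881 pool 1 gave -8.45 points, the matched CpGs -8.69. Ntn3 was at 58.03% and 62.9%, a difference of -4.85 points that was -0.215 without AG-881 pool 2 and -8.98 without AG-881 pool 3.

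The Unc5 genes, which apart from Unc50 and Unc5cl encode repellent netrin receptors, stood at 25.4% of 1252 calls and 21.3% of 1123 calls, 4.12 points higher with AG-881 (interval 0.649 to 7.56). At matched CpGs the difference was 0.735 points (interval -1.64 to 3.11), without AG-881 pool 1 it was 6.57, without DMSO pool 5 6.22 and without AG-881 pool 2 1.93. Unc5a had the highest level, 89.8% and 84.8%, at its far end. Its difference of 4.96 points was 1.63 without DMSO pool 8 and 8.45 without DMSO pool 5. Around a RefSeq start inside the gene Unc5a stood instead at 10.9% of 961 calls and 13.9% of 905 calls, a difference of -3.00 points (interval -6.08 to 0.0695) that was -0.946 without AG-881 pool 2. Unc5c, at 26.1% and 27.7%, differed by -1.56 points, and its sign turned without AG-881 pool 1 (1.49), without AG-881 pool 3 (0.225) and without DMSO pool 5 (2.85).

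Of 3 Nogo receptor genes, which encode receptors for inhibitors of axon regrowth, 2 were lower with AG-881, beside 55.2% of all measured genes. As a family they were at 28.7% of 1135 calls and 34.7% of 917 calls, a difference of -5.96 points (interval -10.1 to -1.84; -7.92 at matched CpGs, interval -11.4 to -4.41). Rtn4rl1 (chr11:75193993-75267769), a homologue of the Nogo receptor, stood at 33.6% of 625 calls with AG-881 and 47.02% of 487 calls with DMSO, which is a difference of -13.4 points (interval -19.3 to -7.49; -10.7 at matched CpGs). Its AG-881 pools were at 36.6%, 28.99%, 33.6% and 34.8% and its DMSO pools at 47.8%, 42.5%, 46.5% and 51.4%, with no overlap. Leaving out a pool moved the difference between -14.8 and -12.1 points. Of cells with at least 3 calls, 10 of 48 AG-881 cells and 1 of 42 DMSO cells had no methylated call there. Rtn4r, the Nogo receptor itself, was at 10.2% and 9.18%, 0.987 points apart, which turned to -0.903 without DMSO pool 6 and -0.127 without AG-881 pool 4.

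Rtn4rl2 (chr2:84871297-84888641), the other homologue, was at 41.5% of 205 calls and 52.6% of 114 calls over its gene ends, a difference of -11.2 points (interval -22.8 to 0.728; -16.0 at matched CpGs) that was -4.51 without DMSO pool 5. Around the RefSeq start printed above (chr2, position 84886692) it was at 22.7% of 273 calls and 46.2% of 173 calls, a difference of -23.5 points (interval -32.6 to -14.2; -23.2 at matched CpGs). There the AG-881 pools were at 17.4%, 19.05%, 34.3% and 19.6% and the DMSO pools with 10 or more calls at 37.04%, 43.1% and 56.2%. These pools did not overlap, and DMSO pool 6, on 6 calls of 1 cell, was at 83.3%.

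**Figure D2:**
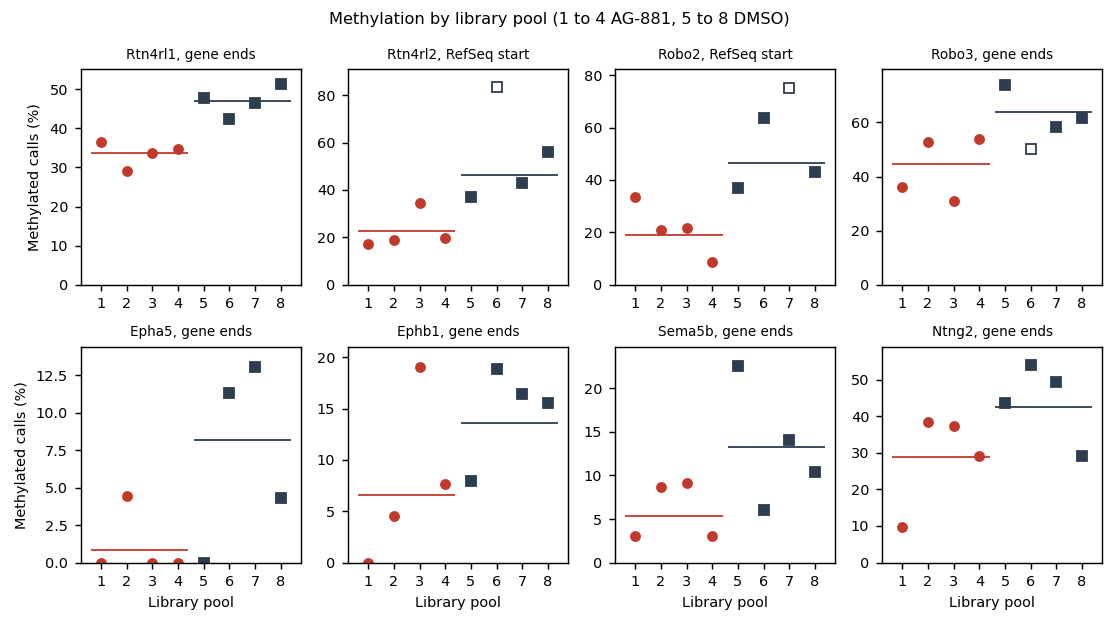
Methylated calls (%, y axis, from 0, scaled per panel) in library pools 1 to 8 (x axis) for 8 genes; circles are AG-881 pools, squares DMSO pools, horizontal lines the level of the arm, and open symbols pools with fewer than 10 calls. At Rtn4rl1 the AG-881 pools lie between 28.99% and 36.6% and the DMSO pools between 42.5% and 51.4%, whereas at Epha5, Ephb1, Sema5b and Ntng2 the pools of the arms overlap.

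Transcription starts of RefSeq were used as a second view, chosen after seeing the data, because gene ends miss starts that lie inside a gene. Starts within 1 kb had 50 or more calls per arm at 53 of 76 starts, in 48 genes, and 15 of these starts were not at a gene end. Of the 53, 9 were lower by 5 points or more, beside 10.1% of the measured starts of all genes, and 4 were higher, beside 3.46%. Windows of nearby starts of the same gene, as at Epha7 and Sema4c, share CpGs, so these starts are not separate units. The rule of separate pools was met downward by 2 of 52, Robo2 and Rtn4rl2 (1.84% of all starts), and upward by none (0.429%). The median over members' starts was 9.75% with AG-881 and 11.3% with DMSO, and over all starts 0.926% and 1.19%. Epha6, an EphA receptor, was at 20.9% of 67 calls and 39.1% of 64 calls around a start inside the gene, with pools that overlapped. Its difference of -18.2 points was -11.8 without DMSO pool 5 and -29.1 without DMSO pool 7. At Sema4c and at a start of Plxnb2 both arms lay below 1%. Another start of Plxnb2 stood at 78.1% of 73 AG-881 calls and 70.9% of 86 DMSO calls.

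By position, the 60 members whose strand the RefSeq table gives had their lowest AG-881 level in the 250 bp just upstream of the start, 8.89% of 1463 calls (interval 7.48 to 10.5), where DMSO stood at 13.8% of 1463 calls (interval 12.1 to 15.7). All genes stood at 4.92% and 5.65% there. The order of the arms was the reverse in 2 of the 8 bins around the start: from 500 to 250 bp upstream, at 25.2% and 21.3% (difference 3.89 points, interval -0.729 to 8.52), and from 250 to 500 bp past it, at 13.3% and 12.6%, the lowest DMSO level of these bins. At the far ends levels were 56.1% to 80.9% with AG-881 and 56.8% to 84.6% with DMSO, on 49 to 239 and 34 to 230 calls per bin. Start ends were measured in 38 members, with medians of 8.23% and 11.6%, and 15 of them (39.5%) lay below 10% in both arms, against 76.1% of 8252 start ends of all genes. Far ends were measured in 6 members, with medians of 78.5% and 76.2%.

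**Figure D3:**
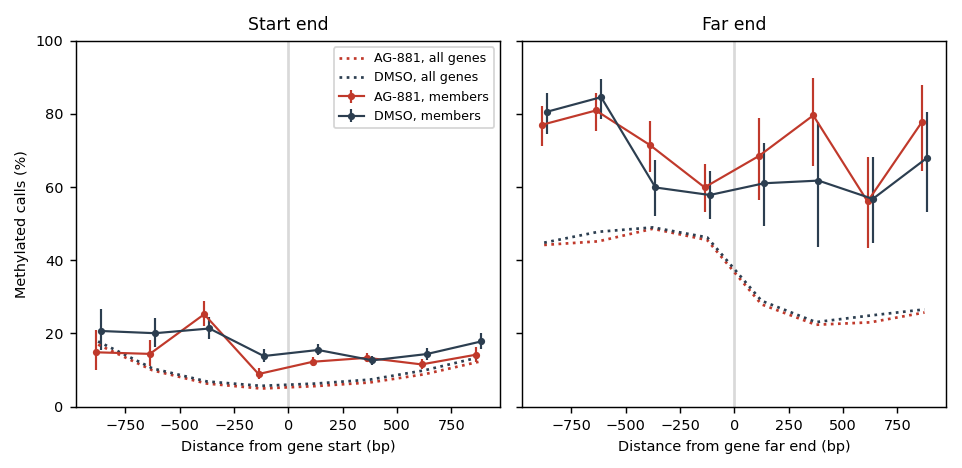
Methylated calls (%, y axis) by distance from the gene start or far end (bp, x axis, bins of 250 bp, negative upstream); points with 95% binomial intervals are the members, dotted lines all genes, red AG-881 and dark blue DMSO. The members lie above all genes in most bins near the start, with the lowest level, 8.89% with AG-881, just upstream of it, and far ends lie at 56.1% or more.

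How far a difference rests on which CpGs each arm covered was read from the pair of pooled and matched values. The signs were the same in 40 of the 50 members, opposite in 9, and 1 was 0. The values were 5 points or more apart in 7 members: Sema6c, Efna2, Efna4, Epha1, Plxnc1, Sema4g and Ntng2. Sema6c and Efna2 have ends of very different levels, with both ends covered. In all, 8 members had at least 10 calls per arm at both ends.

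**Figure D4:**
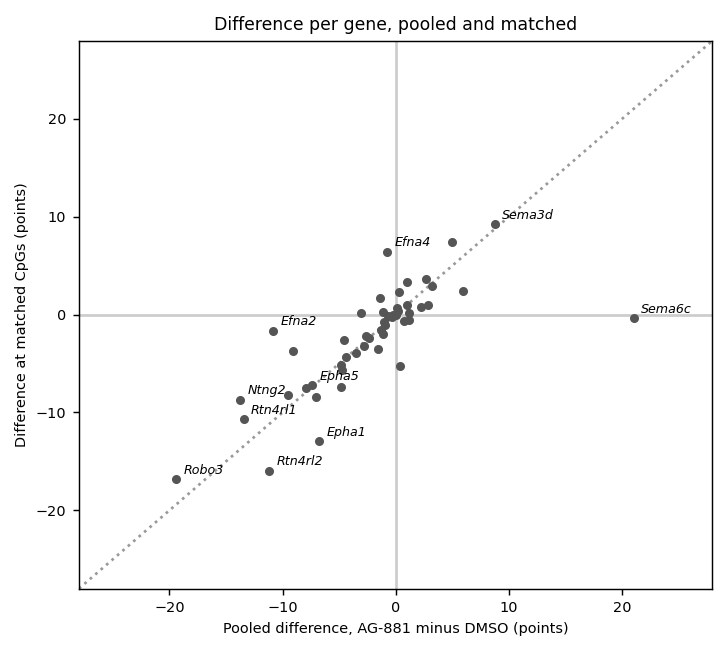
Difference per measured member, AG-881 minus DMSO, over all calls (points, x axis) against the difference at CpGs called in both arms (points, y axis); the dotted line marks equal values. Most of the 50 genes lie near the line, while Sema6c lies at 21.1 and -0.368 points and Efna2 at -10.8 and -1.66.

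Single cells of the arms overlapped. Over all member windows the mean level of cells with 50 or more calls was 17.2% ± 6.08 in 67 AG-881 cells and 18.9% ± 7.17 in 70 DMSO cells (± SD over cells), and 4 DMSO cells had too few calls. AG-881 cells ranged from 1.63% to 33.1% (median 16.9%) and DMSO cells from 0.990% to 38.4% (median 17.8%). The difference of the means was smaller than the SD in either arm. The members spread wider over cells than all gene ends together, which stood at 9.66% ± 1.42 and 10.4% ± 1.31 and hold far more calls per cell.

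**Figure D5:**
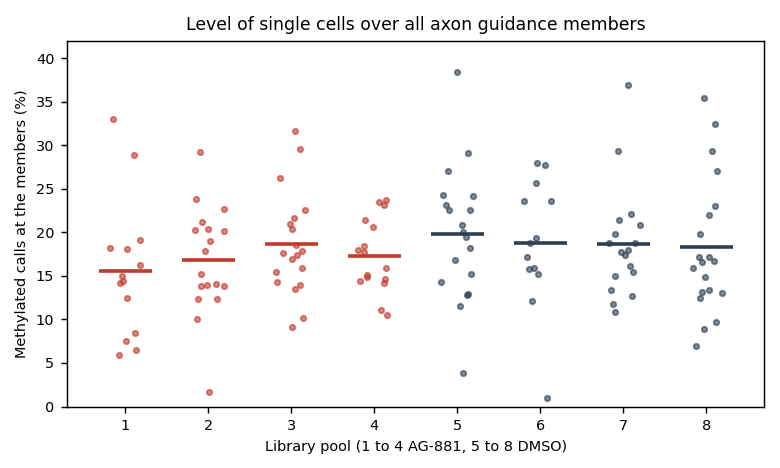
Methylated calls over all member windows (%, y axis) in each cell with 50 or more calls, by library pool (x axis; red AG-881, dark blue DMSO); bars mark the mean of a pool. Pool means run from 15.6% (pool 1) to 19.8% (pool 5), and the cells of every pool overlap those of the others.

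Ligand families and receptor families were set side by side. Pooled over all 36 ligand genes, the difference was -1.73 points (interval -2.98 to -0.483, and -1.41 at matched CpGs). Of the 26 measured, 17 were lower and 9 higher. The pooled ligand difference was -0.590 points without AG-881 pool 1, -1.04 without DMSO pool 5 and -2.95 without AG-881 pool 3. The 32 receptor genes, without Unc50 and Unc5cl, differed by -1.68 points when pooled (interval -2.85 to -0.519, and -2.62 at matched CpGs). Of the 23 measured, 15 were lower and 8 higher. Lower by 5 points or more were 5 ligand genes (19.2%) and 6 receptor genes (26.1%), beside 12.1% of all measured genes, and the 3 genes higher by 5 points or more were all semaphorins. Lower at all were 65.4% of the ligand genes and 65.2% of the receptor genes, beside 55.2% of all measured genes. The difference between ligands and receptors was not tested.

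A list of 62 other genes of these pathways, co-receptors, further ligands and effectors, gave 61 autosomal genes, of which 46 were measured. Of these 29 were lower and 17 higher with AG-881, beside 55.2% and 36.9% of all measured genes. By 5 points or more 9 were lower (19.6%; 12.1% of all measured genes) and 2 higher (4.35%; 4.92% of all measured genes). Pooled over all 61, measured or not, the levels were 8.39% and 9.78%, a difference of -1.39 points (interval -1.99 to -0.783). Lingo1, which forms a complex with the Nogo receptor, was at 21.9% of 415 calls and 39.02% of 264 calls. Its AG-881 pools lay at 22.02%, 20%, 20.4% and 23.5% and its DMSO pools at 38.8%, 45.8%, 45.8% and 31.8%, without overlap, and the matched difference was -15.1 points. Dpysl3, a collapsin response mediator, was at 10.4% and 23.3% (matched difference -1.96), and Cntn1, a neural adhesion molecule, at 29.2% and 41.5%. The largest increases were at Mical1, an oxidase that takes apart actin filaments after semaphorin signals (51.2% of 86 calls and 35% of 100 calls), Draxin, a netrin-pathway repellent (22.8% and 17.7%, matched difference -1.65), and Rgma, a ligand of neogenin (13.4% and 8.97%). Leaving out 1 pool moved several of these differences: Dpysl3 from -12.8 to -8.25 points (DMSO pool 7), Cntn1 from -12.3 to -3.22 (DMSO pool 6), Mical1 from 16.2 to 9.44 (AG-881 pool 3), Draxin from 5.06 to 1.32 (DMSO pool 7) and Rgma from 4.45 to 2.80 (DMSO pool 8).

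The 20 members below the minimum were Epha3, Epha6, Ephb4, Ephb6, Ntn5, Ntng1, Plxnb1, Plxnb2, Robo1, Robo2, Robo4, Sema3a, Sema3b, Sema3e, Sema3g, Sema4a, Sema4c, Sema6a, Slit2 and Unc5cl, 6 of them with no call in either arm. Just below it were Sema3e (35.6% of 104 calls and 38.6% of 44 calls), Plxnb2 (45.2% of 42 and 41.2% of 68) and Ephb4 (40% of 70 and 28.2% of 39). Just above it were Robo3 (83 and 50 calls) and Sema3d (66 and 52 calls). Measured members had a median of 254 calls with AG-881 and 244 with DMSO (range 50 to 1185). Windows of 8 measured members share CpGs with other protein-coding genes, so those calls cannot be assigned to the member alone: Efna4, Epha5, Epha10, Plxna1, Rtn4r, Sema4b, Unc5a and Unc50. Promoter sequences were matched by symbol for 60 members, and Efnb3, Ntn1, Plxna1, Plxna4, Rtn4rl1, Sema3b, Sema3f, Sema6a, Slit1 and Unc5d were not among them.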

How the data were processed

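Single-cell reduced representation bisulfite sequencing was read from 1 deposited table of 141 cells. MspI was the enzyme used, per the labels' protocols, and Smart-seq2 transcriptomes of the same cells were not analysed here. The submitters' processing notes name mm10 as the build. Not given in the sources used here are the aligner, caller and read minimum. The authors deposited a methylated fraction (0, 0.5 or 1, or missing) per cytosine position and cell, without read counts, so read depth is unknown and depth is the number of calls. Wells cannot be read from the column names, which give arm, pool and barcode, so a column was matched to an arm only.

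Adjacent positions were merged as the strands of 1 CpG, and ties (0.649% of calls) were left out, which gave 1318250 CpGs. In RefSeq promoter sequence 98.4% of table positions lay on a CG. Calls were pooled per arm with Clopper-Pearson intervals at the 95% level, and matched differences used Mantel-Haenszel weights with Sato intervals. Incomplete conversion would raise every level. Cells are not replicates and no test was run. The members, families and pathway list were chosen with earlier results of these data known.

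Named members had the highest level, largest decrease or largest increase of their family, or at least 100 calls and 10 cells per arm, a difference of 5 points or more and an interval without 0; Rtn4rl1 was added because earlier results named it. Of other pathway genes, the 3 largest decreases and increases were named. Computation used Python 3.11.15, numpy 2.4.6, scipy 1.17.1 and pandas 2.3.3. The pooled and matched differences were tried on simulated, independent calls with baseline levels kept in a middle range. Low baseline levels and correlated calls were not covered.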

Additional observations from a re-analysis of the deposited data

How the results depend on the processing

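The difference over all members kept its sign under every alternative tried, from -2.41 (without AG-881 pool 3) to -0.940 points (without AG-881 pool 1). Leaving out a pool moved the members lower by 5 points or more between 9 and 16 and those higher between 2 and 6. The lower count was 7 within 500 bp, 6 at start ends and 4 with 200 calls per arm, where 44, 38 and 24 members were measured. The higher count was 6 with each CpG, each cell or each pool weighted equally and within 2 kb, and 0 with 200 calls. Netrins moved to -2.53 points at CpGs called in 5 or more cells of each arm, -2.52 at matched CpGs and -2.48 with equal CpG weights. Nogo receptors moved to -10.1 points at such CpGs and -10.9 with equal cell weights. Unc5 genes gave 10.9 points at such CpGs, and turned to -0.293 with equal CpG weights, -1.19 at start ends and -2.13 at RefSeq starts, an alternative chosen after seeing the data. EphB receptors turned to 1.07 points with equal cell weights and Ephrin-B ligands to 2.86 within 500 bp. Among named genes, Efnb2 turned to 2.86 points within 500 bp, Epha1 ranged from -15.2 to 1.42 over pools left out, Plxnd1 turned to 0.639 within 500 bp, 5.28 within 2 kb and 0.401 at RefSeq starts, and Sema6c to -0.368 at matched CpGs and -4.63 with equal CpG weights. The cause of these changes was not tested, and neither was how much of them goes with fewer members measured. Of 481 values for 25 named genes under the alternatives, 438 kept the sign of the reported difference and 43, in 14 genes, had the opposite sign. Leaving out a pool, an alternative added here after seeing the data, moved the ligand genes between -2.95 and -0.590 points, the receptor genes between -2.11 and -1.24, the other pathway genes between -1.89 and -0.979, and Efnb1 between -1.88 and 20.3. No paired analysis was possible because no pool holds cells of both arms, columns carry no well, and no test was run. Depth limits genes with few calls: at Robo3, Slit1, Sema3d and Epha1 the interval of the difference is over 25 points wide.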

Other observations

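Members of the same families on the X chromosome lie outside the rule. Efnb1, an ephrin-B ligand, was at 36.4% of 154 calls with AG-881 and 23.6% of 127 calls with DMSO, which is a difference of 12.7 points (interval 1.46 to 23.5). Its AG-881 pools were at 42.9%, 6.45%, 58.1% and 18.2% and its DMSO pools at 34.9%, 15%, 11.1% and 28.6%, so the arms overlapped. Without AG-881 pool 3, which held 62 of the 154 calls, the difference turned to -1.88 points, and without AG-881 pool 2 it was 20.3. Plxna3 had 8 and 4 calls, none methylated, and Plxnb3 had none.

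The upstream CpGs of Rtn4rl2 and Robo2 were called in few cells. At Robo2 the 4 CpGs with calls in both arms were covered by 9 to 12 AG-881 cells and 5 to 7 DMSO cells each. At Rtn4rl2 no CpG of the 250 bases had calls in more than 5 AG-881 or 3 DMSO cells. The 42 measured members with a RefSeq promoter had a median of 19.5 CpGs in the upstream stretch (range 2 to 46), and the 18 unmeasured ones a median of 13.5 (range 2 to 30).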
